A study of Mus musculus with 6 samples.

Results

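Interferon-stimulated and nucleic acid sensing genes were examined in 22Rv1, a human prostate cancer cell line, before and after acquired resistance to BL-B01D1. BL-B01D1 is an antibody-drug conjugate that binds EGFR and HER3 and carries a camptothecin-derived topoisomerase I inhibitor. RNA-Seq was available for parental 22Rv1 cells given vehicle (3 libraries) and for the 22Rv1 subline resistant to BL-B01D1 (3 libraries), which was derived by months of exposure to rising drug concentrations. The subline came from 1 selection and the libraries of each group were samples of 1 line, so p-values measure only the spread between these samples, which may be technical. The 47 genes were taken by symbol from a list of RNA sensors, interferon receptors, their signaling proteins and interferon-induced proteins, and each matched 1 of the 58735 genes in the deposited table.

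Cells detect viral or misplaced RNA through helicases such as RIG-I (DDX58) and MDA5 (IFIH1), which signal through the mitochondrial adaptor MAVS and the kinase TBK1 to the transcription factors IRF3 and IRF7. These factors switch on type I interferon, which acts through IFNAR1 and IFNAR2, the kinases JAK1 and TYK2, and a complex containing STAT2 and IRF9 that binds the promoters of interferon-stimulated genes. The induced proteins include direct antiviral effectors (the IFIT, MX and OAS families) and ISG15, a ubiquitin-like protein that is attached to other proteins.

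Counts on genes totaled 13821639 to 17251491 in parental libraries and 14820809 to 16725283 in resistant libraries. At these depths, 3 counts equaled 0.174 to 0.216 CPM (a count divided by the TMM-adjusted library total, times 1e+06). Luminal prostate markers were present in both groups, with KLK2, KLK3, HOXB13, FOLH1, EPCAM, KRT8 and KRT18 all passing the filter on low counts. At an FDR under 0.05 in edgeR's test, KLK2, KLK3, FOLH1 and KRT8 were higher and HOXB13, EPCAM and KRT18 lower in resistant cells. Their log2 fold changes lay between −0.48 (HOXB13) and 0.91 (KLK3). Of all genes tested, 17.1% were higher and 18.4% lower at that FDR. Leukocyte markers summed to 1.44 to 2.86 CPM in parental and 1.36 to 2.10 CPM in resistant libraries, with 7 of the 10 at no more than 3 counts in every library, PTPRC and CD3E among them. Fibroblast and endothelial markers summed to 15.7 to 18.2 CPM in parental and 13.6 to 14.5 CPM in resistant libraries, most of it COL1A1, and 4 of the 8 had no more than 3 counts in every library. The part of these differences in the results that follow was not tested. In bulk RNA, fewer cells expressing a gene and less RNA per cell cannot be told apart.

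The interferon and sensing genes that differed between resistant and parental cells did so in both directions. DHX58 (LGP2), a helicase that regulates RIG-I and MDA5 signaling, was the only gene of the 47 to be called at the thresholds of an FDR under 0.05 and an absolute log2 fold change above 1. PARP9, PARP14 and DTX3L, which lie close together on chromosome 3, also rose, and the antiviral effectors MX1 and ISG20 fell. IFIT1 and OAS1 had too few counts to be tested, as did 9 of the 17 antiviral effectors and 6 of the 7 other interferon-induced proteins in all. Other interferon-induced genes, such as ISG15, ADAR and OAS3, were well expressed in both groups.

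Of the 47 genes, 31 had enough counts to be tested. Of these, 7 were higher in resistant cells at an FDR under 0.05 in edgeR's quasi-likelihood test (22.6%, beside 17.1% of all 17142 genes tested), and 6 were lower (19.4%, beside 18.4%). With the fold threshold added, 1 was called higher (3.23%, beside 2.53% of all genes) and 0 lower (beside 2.84%). The median log2 fold change of the 31 genes was 0.09, from −0.89 to 1.07, and that of all genes was 0.00. Every resistant library lay above every parental library in CPM for 12 of the 31 (38.7%, beside 22.1% of all genes tested) and under every parental library for 5 (16.1%, beside 22.8%). The other 14 overlapped. Among the 13 genes past the FDR threshold, 8 had an absolute log2 fold change under 0.5.

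**Figure D1:**
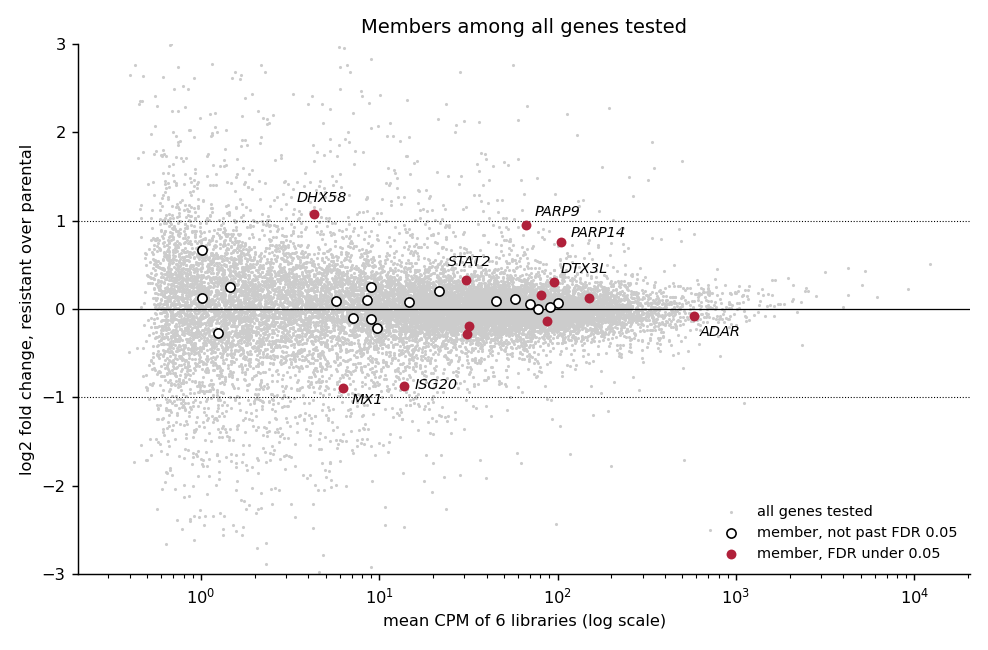
Log2 fold change (resistant over parental, y axis) against mean CPM of the 6 libraries (x axis, log scale) for all genes tested (gray) and the 31 tested interferon and sensing genes (red, FDR under 0.05; open, not past it). Dotted lines mark a log2 fold change of 1 in each direction, which only DHX58 of the 31 passed, and 50 of all genes lie beyond the plotted range.

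The 6 groups of roles differed in how much of them was expressed. All 6 receptors and kinases, all 5 transcription factors and all 6 genes of the ISG15 and PARP9 group could be tested, but only 8 of the 17 antiviral effectors and 1 of the 7 other interferon-induced proteins. The 16 genes that could not be tested had at most 13 counts in any library and together held 50 to 59 counts per library, while the 47 genes together held 24351 to 31094. Per transcript length, ISG15 had the highest level of the 31 tested genes, at 86.1 FPKM (CPM divided by gene length in kilobases, mean over the groups), followed by ADAR at 59.9 and IRF3 at 18.4 FPKM. IRF9 (0.268 FPKM), IFNAR2 (0.220 FPKM) and IRF1 (0.186 FPKM) were listed lowest, but each of these lies wholly under another gene model and its counts are uncertain.

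**Figure D2:**
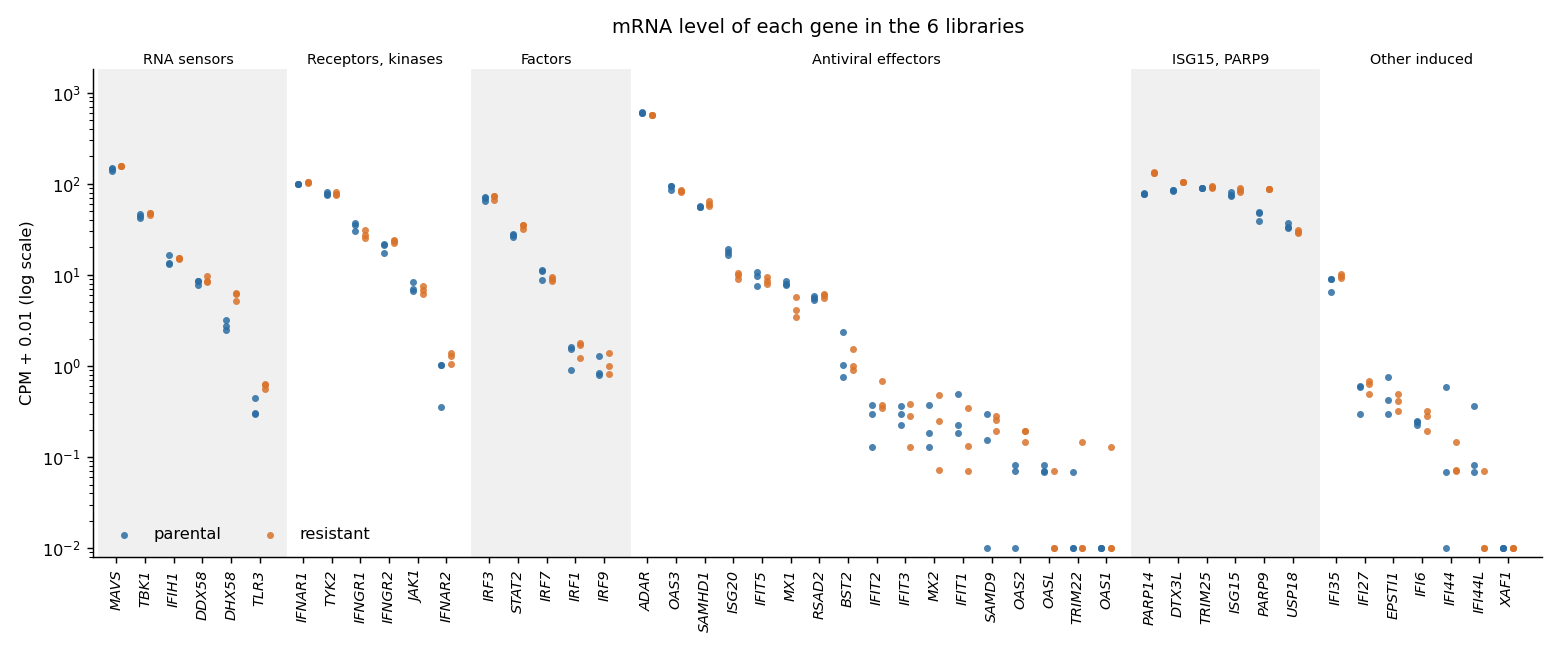
CPM plus 0.01 (y axis, log scale) of each of the 47 genes in each library, grouped by role and ordered by level, with parental libraries in blue and resistant libraries in orange. ADAR stands highest, PARP9 and PARP14 separate the groups, and most IFIT, OAS and IFI genes lie under 1 CPM.

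Among the RNA sensors, DHX58 (ENSG00000108771, chromosome 17, 42101404 to 42112733) had 47, 53 and 34 counts in parental libraries 1, 2 and 3 and 86, 92 and 101 counts in resistant libraries 1, 2 and 3. The 3 resistant libraries were all above the parental ones. The level went from 2.78 ± 0.356 to 5.89 ± 0.607 CPM (SD, n = 3), a log2 fold change of 1.07 ± 0.18 (SE, edgeR FDR 8.27e-06, 95% CI 0.70 to 1.45). The interval reaches well under the fold threshold, and the call was lost without parental library 3 (log2 fold change 0.9991), with a prior count of 5 (0.9966) and with glmTreat (FDR 1).

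The 2 helicases that start the pathway did not pass the test. IFIH1, which recognizes long double-stranded RNA, had 281, 226 and 182 counts in parental and 244, 225 and 249 counts in resistant libraries, with a log2 fold change of 0.08 ± 0.10 (SE, edgeR FDR 0.608, 95% CI −0.13 to 0.28). DDX58, which recognizes RNA with a 5′ triphosphate, had 148, 142 and 108 counts in parental and 143, 122 and 158 counts in resistant libraries, with a log2 fold change of 0.10 ± 0.13 (SE, edgeR FDR 0.585, 95% CI −0.15 to 0.36). For both genes the groups overlapped.

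MAVS had 2489, 2316 and 2078 counts in parental and 2608, 2313 and 2562 counts in resistant libraries, or 144 ± 5.90 and 157 ± 0.348 CPM (SD, n = 3). All resistant libraries were above the parental ones in CPM, and MAVS rose by a log2 fold change of 0.13 ± 0.04 (SE, edgeR FDR 0.00408), a call that was lost without parental library 2 (FDR 0.0567). TBK1 gave 0.09 ± 0.06 (SE, edgeR FDR 0.237). TLR3, the endosomal receptor for double-stranded RNA, had 5, 5 and 6 counts in parental and 10, 8 and 10 counts in resistant libraries, too few to be tested.

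IFNGR1, the ligand-binding chain of the interferon-γ receptor, was the only one of the 6 receptors and Janus kinases to pass the FDR threshold. It had 604, 616 and 424 counts in parental and 515, 403 and 415 counts in resistant libraries, or 34.1 ± 3.18 and 28.0 ± 2.80 CPM (SD, n = 3). It fell by 0.29 on the log2 scale (SE 0.08, edgeR FDR 0.00285), although resistant library 1 overlapped the parental range. Its partner chain IFNGR2 gave a log2 fold change of 0.20 ± 0.09 (SE, edgeR FDR 0.064), and it shares 46864 bases with TMEM50B on the opposite strand, whose reads cannot be told apart from its own if counting did not use strand. Without parental library 1, IFNGR2 passed (log2 fold change 0.27, FDR 0.0208).

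IFNAR1, 1 of the chains of the type I interferon receptor, gave a log2 fold change of 0.07 ± 0.04 (SE, edgeR FDR 0.22, 95% CI −0.02 to 0.15). IFNAR2 had 6, 17 and 14 counts in parental and 23, 19 and 17 counts in resistant libraries, with all resistant libraries above the parental ones in CPM. Its log2 fold change was 0.67 (edgeR FDR 0.184), with a 95% CI of −0.11 to 1.45 that does not exclude a large rise. The whole of IFNAR2 lies under AP000295.1, a gene model on the same strand with 0 counts in these libraries, and reads that fit both may not have been counted, so the counts of IFNAR2 are uncertain. JAK1 gave −0.10 ± 0.14 (SE, edgeR FDR 0.637) and TYK2 0.00 ± 0.05 (SE, edgeR FDR 0.957), the latter with a 95% CI of −0.09 to 0.10.

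Of the transcription factors, STAT2, the partner of IRF9, was the 1 of 5 to pass the test. It had 474, 467 and 360 counts in parental and 585, 516 and 517 counts in resistant libraries. The 3 resistant libraries were all above the parental ones in CPM, at 34.1 ± 1.92 against 27.1 ± 1.00 CPM (SD, n = 3), and STAT2 rose by a log2 fold change of 0.33 ± 0.07 (SE, edgeR FDR 2.55e-04).

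IRF9, the DNA-binding partner of STAT2, was weakly expressed. It had 22, 14 and 11 counts in parental and 23, 12 and 16 counts in resistant libraries. The groups overlapped and the log2 fold change was 0.13 ± 0.37 (SE, edgeR FDR 0.824, 95% CI −0.61 to 0.87), an interval that leaves a change of either sign possible at this depth. All 5513 bases of IRF9 are shared with AL136295.5, a gene model on the same strand with 74 counts over the 6 libraries, so its counts are uncertain. IRF3 (log2 fold change 0.06, FDR 0.41), IRF7 (−0.21, FDR 0.193) and IRF1 (0.25, FDR 0.589) did not pass edgeR's test either.

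**Figure D3:**
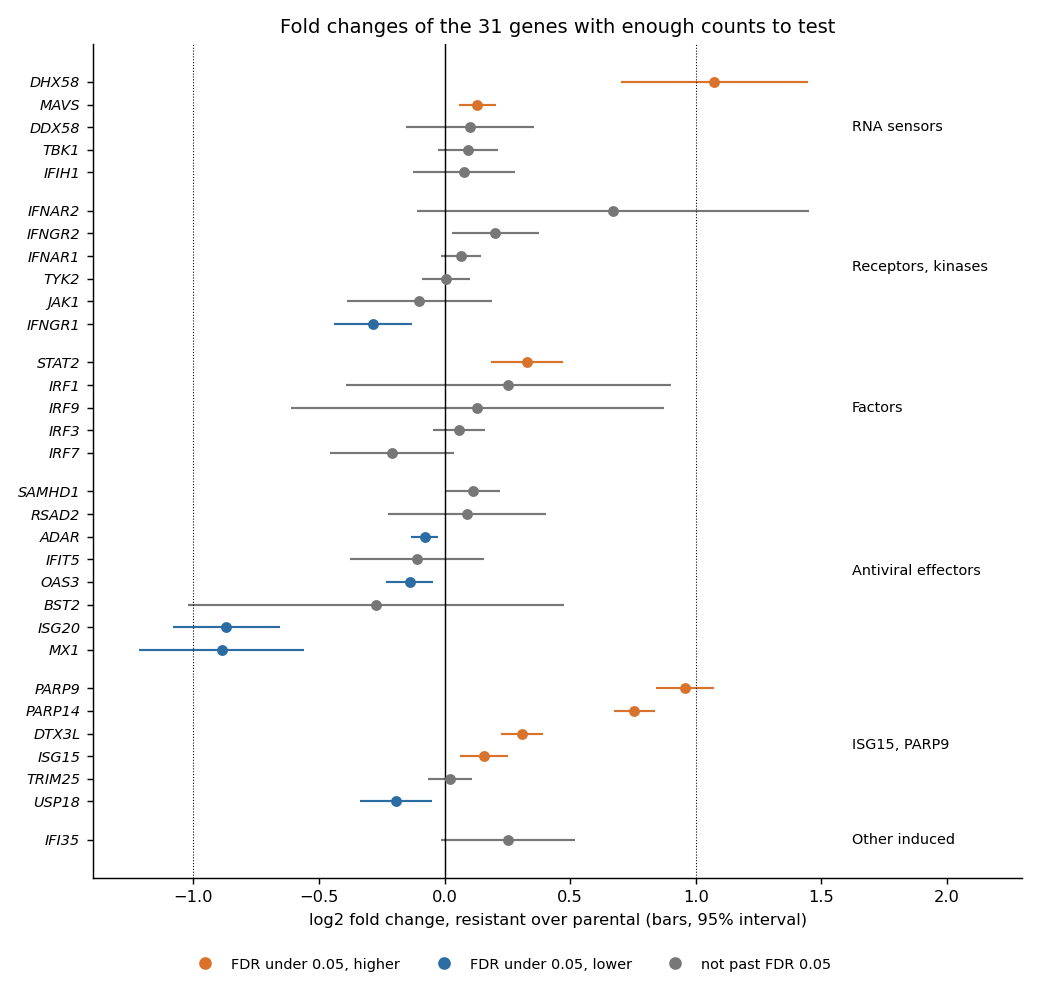
Log2 fold change (x axis, resistant over parental) with 95% interval from the edgeR fit for the 31 tested genes, grouped by role, in orange or blue where the FDR was under 0.05 and in gray otherwise. DHX58, PARP9 and PARP14 lie farthest to the right and MX1 and ISG20 farthest to the left.

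The antiviral effectors that passed the test were all lower in resistant cells. They were 4 of the 8 that could be tested (50%, beside 18.4% of all genes), with 0 higher (beside 17.1%), and the median log2 fold change of these 8 was −0.12. Here too the shares are not like for like, since the group was made with earlier results of these data known. ADAR and OAS3 lay at the 96.2 and 72 percentiles of level among tested genes, where small changes can pass, and MX1 and ISG20 at the 16.5 and 32.3 percentiles. MX1 (ENSG00000157601, chromosome 21, 41420304 to 41459214), a dynamin-like GTPase that traps viral nucleocapsids, had 132, 145 and 111 counts in parental and 68, 83 and 56 counts in resistant libraries. The groups did not overlap, and the level went from 8.10 ± 0.496 to 4.40 ± 1.13 CPM (SD, n = 3). MX1 fell by 0.89 on the log2 scale (SE 0.16, edgeR FDR 2.39e-05, 95% CI −1.22 to −0.56). It would pass the fold threshold without resistant library 2 (log2 fold change −1.10), but the change was −0.74 without resistant library 3. Its paralog MX2 had between 1 and 7 counts in every library and could not be tested.

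ISG20 (ENSG00000172183, chromosome 15, 88636153 to 88656483), an exonuclease that degrades single-stranded RNA, had 284, 297 and 269 counts in parental and 172, 145 and 146 counts in resistant libraries. Each resistant library was lower than each parental library, at 9.74 ± 0.696 against 17.8 ± 1.46 CPM (SD, n = 3). ISG20 fell by 0.87 on the log2 scale (SE 0.10, edgeR FDR 6.08e-09, 95% CI −1.08 to −0.66).

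The other 2 effectors that fell did so by small amounts. OAS3, which makes the 2′-5′-linked oligoadenylates that activate RNase L, had 1616, 1577 and 1186 counts in parental and 1390, 1177 and 1368 counts in resistant libraries and fell by 0.14 on the log2 scale (SE 0.05, edgeR FDR 0.0139). ADAR, which edits adenosine to inosine in double-stranded RNA, had 10162, 10251 and 8201 counts in parental and 9404, 8250 and 9184 counts in resistant libraries, or 597 ± 11.7 and 565 ± 3.39 CPM (SD, n = 3), and fell by 0.08 on the log2 scale (SE 0.03, edgeR FDR 0.013). For both genes all resistant libraries were under the parental ones in CPM. The OAS3 call was lost without parental library 1 (FDR 0.0602), parental library 2 (FDR 0.0816) or resistant library 2 (FDR 0.0911), and the ADAR call without parental library 2 (FDR 0.0882) or resistant library 2 (FDR 0.0635).

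The 4 tested effectors that did not pass were SAMHD1 (log2 fold change 0.11, edgeR FDR 0.0999), RSAD2 (0.09, FDR 0.707), IFIT5 (−0.11, FDR 0.569) and BST2 (−0.27, FDR 0.615). BST2 (tetherin, which holds budding virions at the cell surface) had 13, 39 and 14 counts in parental and 25, 13 and 16 counts in resistant libraries. Parental library 2 stood apart from the others, and without it the log2 fold change of BST2 was 0.37.

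The remaining 9 effectors had too few counts to test. IFIT1, which binds viral RNA lacking a normal cap, had 3, 8 and 3 counts in parental and 1, 5 and 2 counts in resistant libraries. IFIT2 had between 2 and 11 counts and IFIT3 between 2 and 6. IFIT1, IFIT2 and IFIT3 lie within LIPA on the opposite strand, which held 4996 counts over the 6 libraries, so some of their few reads may be LIPA reads if strand was not used. OAS1 had 0 counts in each parental library and 2, 0 and 0 in the resistant ones, OAS2 0, 1 and 1 and then 3, 2 and 3, and OASL 1, 1 and 1 and then 1, 0 and 0. SAMD9 had at most 5 counts in a library and TRIM22 at most 2. TRIM22 lies within TRIM5 on the opposite strand, which held 1938 counts over the 6 libraries. OAS1, OAS2 and OAS3 lie largely or wholly under AC004551.1, an antisense gene model with 0 counts. If strand was not used, the counts of these genes are uncertain. All 3 resistant libraries were above the parental ones for OAS2, at no more than 3 counts. At this depth small differences in these 9 genes were not detectable.

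The ISG15 and PARP9 group held the largest share of genes that passed the test, with 4 of 6 higher (66.7%, beside 17.1% of all genes) and 1 lower (16.7%, beside 18.4%). These shares are not like for like. The 6 genes lay between the 63.2 and 97.7 percentiles of level among tested genes, where small changes can pass. Those higher include the close neighbors PARP9, DTX3L and PARP14, and the group was made with earlier results of these data known. PARP9 and DTX3L are known to form a complex that ubiquitylates histones and takes part in the DNA damage response, and PARP14 is a mono-ADP-ribosyltransferase. PARP9 (ENSG00000138496, chromosome 3, 122527924 to 122564577) had 678, 818 and 665 counts in parental and 1441, 1287 and 1436 counts in resistant libraries. All resistant libraries were far above the parental ones, at 87.6 ± 0.793 against 45.3 ± 5.20 CPM (SD, n = 3), and PARP9 rose by a log2 fold change of 0.96 ± 0.06 (SE, edgeR FDR 1.19e-17). With 1 library left out, the log2 fold change of PARP9 was 0.86 to 1.01. It passed the fold threshold only without parental library 2, the highest of the 3 parental libraries.

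PARP14 (ENSG00000173193, chromosome 3, 122680618 to 122730840) had 1375, 1285 and 1082 counts in parental and 2145, 1974 and 2141 counts in resistant libraries. The groups were separate, at 78.1 ± 1.63 and 132 ± 2.40 CPM (SD, n = 3), and PARP14 rose by a log2 fold change of 0.76 ± 0.04 (SE, edgeR FDR 3.77e-19). DTX3L (ENSG00000163840, chromosome 3, 122564238 to 122575203), the ubiquitin ligase partner of PARP9, had 1443, 1438 and 1189 counts in parental and 1744, 1551 and 1709 counts in resistant libraries. It rose by a log2 fold change of 0.31 ± 0.04 (SE, edgeR FDR 6.28e-08), again with no overlap between the groups. PARP9 and DTX3L share 340 bases at their starts on opposite strands, a small part of either gene.

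ISG15 itself moved little. It had 1395, 1271 and 1016 counts in parental and 1350, 1259 and 1452 counts in resistant libraries, or 76.6 ± 3.95 and 85.5 ± 4.02 CPM (SD, n = 3). The log2 fold change was 0.16 ± 0.05 (SE, edgeR FDR 0.00867), with every resistant library above the parental ones in CPM, and it no longer passed without parental library 3 (FDR 0.0572) or resistant library 3 (FDR 0.0774). USP18, the protease that removes ISG15 and restrains type I interferon signaling at IFNAR2, had 636, 541 and 465 counts in parental and 515, 427 and 482 counts in resistant libraries. It fell by 0.19 on the log2 scale (SE 0.07, edgeR FDR 0.029), but the call was lost with DESeq2 (FDR 0.0824) and without parental library 1 (FDR 0.2), resistant library 2 (FDR 0.107) or resistant library 3 (FDR 0.0741). TRIM25, the ubiquitin ligase that acts on RIG-I, gave 0.02 ± 0.04 (SE, edgeR FDR 0.747, 95% CI −0.06 to 0.11). It shares 33181 bases with DGKE on the opposite strand, so its counts are uncertain if strand was not used.

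Of the other interferon-induced proteins, only IFI35 could be tested. It had 111, 152 and 126 counts in parental and 168, 136 and 158 counts in resistant libraries and gave a log2 fold change of 0.25 ± 0.13 (SE, edgeR FDR 0.137). IFI6 had between 3 and 5 counts in every library, IFI27 between 5 and 10, EPSTI1 between 4 and 13, IFI44 between 0 and 8 and IFI44L between 0 and 6. XAF1, a proapoptotic interferon-induced gene, had 0 counts in all 6 libraries, which allows up to 3 counts, or 0.174 to 0.216 CPM, in each. Such floors cover counting error only.

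Summed over a group, these changes offset each other in part. The antiviral effectors summed to 777 to 804 CPM in parental and 737 to 743 CPM in resistant libraries, most of it ADAR. The ISG15 and PARP9 group summed to 408 to 411 CPM in parental and 527 to 538 CPM in resistant libraries, and the sensors to 209 to 216 and 232 to 238 CPM, most of it MAVS. The receptors and kinases overlapped, at 236 to 241 and 233 to 248 CPM. All 47 genes together went from 1754 to 1779 CPM in parental to 1873 to 1876 CPM in resistant libraries. Most of that rise, and of the rise in the ISG15 and PARP9 group, lay in the close neighbors PARP9, PARP14 and DTX3L. In mean CPM, PARP9 went from 45.3 to 87.6 and PARP14 from 78.1 to 132, and DTX3L rose by a log2 fold change of 0.31. The total therefore does not show a rise shared by the 47 genes.

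The genomic neighborhoods of PARP9 and MX1 were looked at after their values were seen. Those of the OAS, IFNAR, IFIT, IFI44 and HERC5 clusters were also examined, and only some are described. PARP9, DTX3L and PARP14 span 202.9 kb of chromosome 3 (hg38, 122527924 to 122730840), and 6 of the 10 other coding genes within 250 kb could be tested. Of these 6, 2 were higher at an FDR under 0.05 (beside 17.1% of all genes) and 0 lower (beside 18.4%). FAM162A (log2 fold change 0.18, edgeR FDR 1.62e-04) and WDR5B (0.31, FDR 0.022) also rose, whereas KPNA1, which flanks PARP9, gave 0.01 (FDR 0.932), HSPBAP1, next to PARP14, gave 0.29 (FDR 0.0708) and DIRC2, beyond it, gave 0.01 (FDR 0.951). PARP15, which lies between DTX3L and PARP14, had at most 1 count in a library. Around MX1 and MX2 on chromosome 21 (41361943 to 41459214), the 2 coding neighbors that could be tested moved in opposite directions. At an FDR under 0.05, 1 was higher (beside 17.1% of all genes) and 1 lower (beside 18.4%). BACE2 fell by 0.97 on the log2 scale (edgeR FDR 3.52e-10) and TMPRSS2, a serine protease, rose by a log2 fold change of 0.79 (FDR 4.74e-10). Around the OAS genes, 2 of 7 tested coding neighbors fell at an FDR under 0.05 (beside 18.4% of all genes) and 0 rose (beside 17.1%). They were DTX1 (log2 fold change −2.31, edgeR FDR 4.22e-06) and RASAL1 (−2.21, FDR 3.48e-10).

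**Figure D4:**
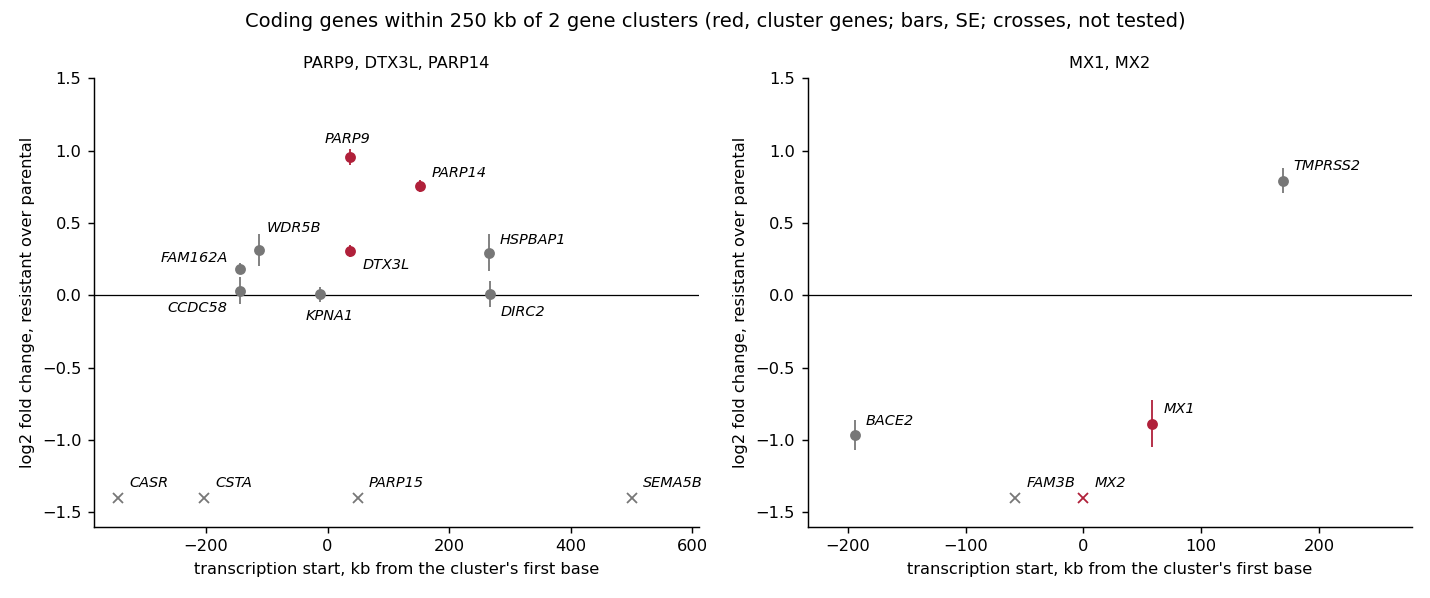
Log2 fold change with SE (y axis, resistant over parental) of coding genes within 250 kb of PARP9, DTX3L and PARP14 (left) and of MX1 and MX2 (right), by the distance of each gene's start from the first base of the cluster in kb (x axis). Red marks cluster genes and crosses mark genes with too few counts to test, drawn at an arbitrary height, with KPNA1 near 0 beside PARP9.

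The genes that encode interferons were near 0 in both groups. Of 21 interferon genes, among them IFNB1, the IFNA genes, IFNG and IFNL1, 14 had 0 counts in every library, none could be tested, and the highest count was 4 (IFNK in parental library 2). The other sensing genes included the DNA sensor CGAS, with 2, 0 and 0 counts in parental and 2, 2 and 1 in resistant libraries, and its adaptor STING1 (listed as TMEM173), with at most 1 count in a library. AIM2 and TREX1 had 0 counts throughout, and IFI16 and ZBP1 at most 1. Overlap of these sensing genes with other gene models was not checked, so their counts may be too low.

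Of the 23 other sensing genes, 13 were tested, with 1 higher (7.69%, beside 17.1% of all genes) and 2 lower (15.4%, beside 18.4%) at an FDR under 0.05. RNASEH2C, a subunit of the RNase that removes ribonucleotides from DNA, rose by a log2 fold change of 0.34 (edgeR FDR 8.79e-06). EIF2AK2, the kinase PKR, which halts translation when it binds double-stranded RNA, fell by 0.19 on the log2 scale (FDR 2.08e-04), as did TICAM1, the adaptor of TLR3, by 0.25 (FDR 0.0248). Among the other receptor and feedback genes, PTPN6, a phosphatase that restrains cytokine signaling, rose by a log2 fold change of 0.37 (FDR 1.90e-05).

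A further 47 interferon-stimulated genes, of which 30 could be tested, had 5 higher (16.7%, beside 17.1% of all genes) and 5 lower (16.7%, beside 18.4%) at an FDR under 0.05, shares near the background. Their median log2 fold change was −0.10. With the fold threshold, 2 were called higher (6.67%, beside 2.53%) and 1 lower (3.33%, beside 2.84%).

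HERC5, the ligase that attaches ISG15 to newly made proteins, had 81, 111 and 73 counts in parental and 344, 314 and 323 counts in resistant libraries. All resistant libraries were far above the parental ones, and it rose by a log2 fold change of 1.90 ± 0.12 (SE, edgeR FDR 2.88e-17), from 5.52 ± 0.982 to 20.7 ± 0.725 CPM (SD, n = 3). HERC5 and HERC6 span chromosome 4 from 88378739 to 88506163, and all 5 tested coding neighbors within 250 kb were higher at an FDR under 0.05 (beside 17.1% of all genes), among them ABCG2, which encodes a drug efflux transporter and had a log2 fold change of 6.71. HERC6, next to HERC5, gave 0.05 (FDR 0.828). The other genes of ISG15 conjugation on this list, UBA7 and UBE2L6, could not be tested. UBA7 had 8, 12 and 8 counts in parental and 4, 3 and 5 counts in resistant libraries, and UBE2L6 12, 10 and 5 and then 4, 3 and 3, so that for both all resistant libraries were under the parental ones.

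SP110, a nuclear body protein, was also called higher. It had 40, 42 and 29 counts in parental and 74, 75 and 73 counts in resistant libraries, with no overlap, and a log2 fold change of 1.01 ± 0.20 (SE, edgeR FDR 8.66e-05). The 95% CI of SP110, 0.61 to 1.42, reaches well under the fold threshold, and its call was not examined under the alternatives. LAMP3, a lysosomal membrane protein, was called lower. It had 85, 103 and 65 counts in parental and 23, 19 and 31 counts in resistant libraries, and it fell by 1.77 on the log2 scale (SE 0.22, edgeR FDR 1.60e-08). HELZ2, a helicase, fell by 0.80 (FDR 1.73e-13) and PSMB9, an immunoproteasome subunit, by 0.65 (FDR 0.00598). ZNFX1 (log2 fold change 0.38, FDR 2.34e-05), TDRD7 (0.37, FDR 3.23e-04) and SLFN11 (0.29, FDR 0.0011), which blocks replication after DNA damage, rose.

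**Figure D5:**
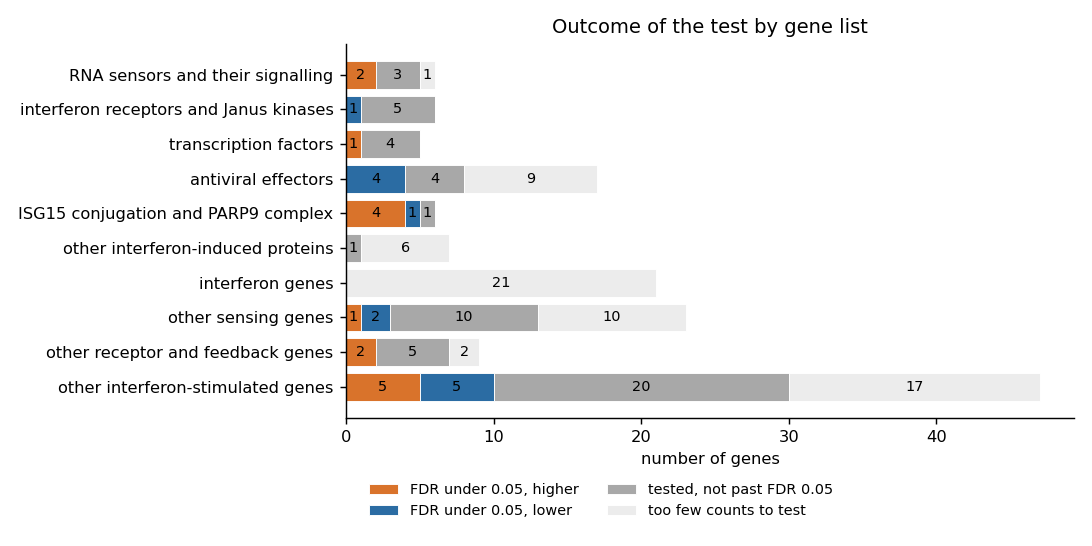
Number of genes (x axis) in each of the 6 role groups of the 47 genes and in 4 further lists of the pathway, divided by the outcome of the edgeR test. Of the ISG15 and PARP9 group 4 of 6 were higher, of the antiviral effectors 4 of 17 were lower with 9 not tested, and none of the 21 interferon genes could be tested.

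Where the tested genes did not pass, the intervals were narrower for those with ample counts. The 7 genes not past the FDR threshold that had at least 20 CPM had 95% intervals between −0.09 and 0.37 on the log2 scale. This range takes in changes as large as some that passed, such as that of MAVS (0.13). The intervals of IFNGR2 (0.03 to 0.37) and SAMHD1 (0.004 to 0.22) lay above 0, so not passing does not show that a gene was unchanged. For IRF1, IRF9, IFNAR2 and BST2, all near 1 CPM, the intervals were too wide to tell a rise from a fall.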

How the data were processed

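RNA-Seq of 22Rv1 cells was analyzed from the table of raw counts per gene that the authors deposited, with 3 parental and 3 resistant libraries grouped by the sample labels. The labels name mouse, but the cell line and the gene identifiers are human. The authors purified mRNA with oligo-dT, trimmed reads with fastp, mapped them to hg38 with HISAT2 2.0.5 and counted with featureCounts 1.5.0-p3. The annotation release, strand setting and any count filter are not given in the sources used here. Gene lengths listed in the same table, another quantity deposited by the authors, were used for FPKM, computed here. The columns of per-sample values not used numbered 0. No human sequence was used here, so promoters were not described.

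Genes were filtered with edgeR's filterByExpr and tested with its quasi-likelihood test (edgeR 4.0.16, R 4.3.3) after TMM scaling, with Benjamini-Hochberg adjustment over 17142 genes. The common biological coefficient of variation was 3.51%. CPM uses TMM-adjusted library sizes, and values are mean ± SD. Total counts ranged from 13821639 to 17251491. A gene was called at an FDR under 0.05 and an absolute log2 fold change above 1. The members and lists were chosen with earlier results of these data known. Given in full are members called, IFIT1, ISG15, MX1, OAS1, IFIH1, DDX58, MAVS, STAT2 and IRF9, up to 3 members per role group with the largest change at an FDR under 0.05, and genes called in further lists; other genes are named as examples. The alternatives were limma-voom (limma 3.58.1), DESeq2 1.42.0, other scalings, filters and prior counts, glmTreat, a replicate block and leaving out each library. The tests were checked on simulated data with the same biological coefficient of variation for every gene, which does not measure the error of the calls made here. Both groups carry replicate numbers 1 to 3, but same-numbered libraries did not deviate together (correlations −1e-04, −0.0158 and −0.0447). Some genes of the further lists are not reported here.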

Additional observations from a re-analysis of the deposited data

How the results depend on the processing

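Among the 31 tested genes, 1 was called higher and 0 lower. The number called higher was 0 with a prior count of 5 and with glmTreat, and 0 to 2 when 1 library was left out (0 without parental library 3, 2 without parental library 2, when PARP9 joined DHX58). The number called lower was 0 to 1 (MX1, without resistant library 2). At an FDR under 0.05 alone, 7 were higher and 6 lower. glmTreat gave 0 and 0, and leaving out 1 library gave 6 to 8 and 3 to 6, with 3 without resistant library 2. The median log2 fold change of 0.0893 was 0.0732 with library size alone and 0.0648 to 0.1128 with 1 library left out. With no filter on low counts, 46 of the genes were tested and the 4 counts were unchanged. The replicate block gave the same counts (1 and 0 called, 7 and 6 at the FDR threshold). The labels do not say whether the replicate numbers pair the libraries.

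Of single genes, none that passed the test changed sign. Those that did were TYK2 (−0.0119 with library size alone, −0.0248 to 0.0339 with 1 library left out), JAK1 (−0.1766 to 0.0090), IRF9 (−0.1085 to 0.3899), IFIT5 (−0.2526 to 0.0132) and BST2 (−0.5834 to 0.374), the last 4 only when 1 library was left out (parental library 1, resistant library 1, parental library 1 and parental library 2, respectively). Over the 31 genes and all alternatives, 25 values lost the FDR threshold and 1 gained it. The 25 include all 13 genes past the threshold under glmTreat. That test asks for an absolute log2 fold change above 1, so those losses do not measure stability of a difference from 0. Genes under about 1 CPM, among them most IFIT, OAS and IFI genes, are beyond what this depth can compare. The cause of these dependencies was not tested.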
